A study of Mus musculus with 5 samples.

Results

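The prostaglandin genes described here are the 10 genes Pla2g4a, Ptgs1, Ptgs2, Ptges, Ptgis, Hpgd, Ptger2, Ptger3, Ptger4 and Ppard, chosen by name for their place in prostaglandin synthesis, breakdown and signaling. All 10 were found among the 28666 genes of the count table, and all 10 had enough counts to be tested. They were measured by RNA-seq in uteri of pseudopregnant ICR females, an outbred mouse stock, aged 6 to 8 weeks. Females of the aged-SP group had been caged with aged, and those of the young-SP group with young, C57BL/6 males. The males of both groups had been vasectomized, so their ejaculate carried seminal plasma (SP) without sperm and no uterus held embryos. The labels place collection 3.5 days after caging, while the methods of the study count from the copulatory plug and give an earlier point before implantation. There were 2 aged-SP libraries (replicates 1 and 4) and 3 young-SP libraries (replicates 1, 2 and 4), and a further young-SP sample that the study set aside was not analysed here.

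Prostaglandins are short-lived lipids made from arachidonate. Cytosolic phospholipase A2 (Pla2g4a) frees arachidonate from membranes, the cyclooxygenases (Ptgs1 and Ptgs2) turn it into prostaglandin H2, and terminal synthases such as Ptges and Ptgis convert this into prostaglandin E2 and prostacyclin. Prostaglandin E2 acts through 4 cell-surface receptors, prostacyclin products have been linked to the nuclear receptor Ppard in the mouse uterus, and Hpgd inactivates prostaglandins. In mice, Pla2g4a and Ptgs2 are needed for normally timed implantation and for decidualization, the transformation of the stroma around an implanting embryo. In the gene ontology columns of the deposited table, decidualization held 25 genes, of which 4 were Pla2g4a, Ptgs2, Ptgis and Ppard, and embryo implantation held 54, of which 3 were Ptgs2, Ptgis and Ppard.

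Total counts lay between 15071914 and 16728601 per library. Young-SP replicate 1 was less like replicates 2 and 4 of its group than these were like each other. The chi-square per degree of freedom between libraries was 18.5 for young-SP replicates 2 and 4. For replicate 1 against these it was 48.0 and 40.2. Between the 2 aged-SP libraries it was 36.0, and the 18.5 was the lowest of any pair of libraries. Over 17013 tested genes, edgeR's quasi-likelihood test called 25 genes (0.147%), called genes being those with a Benjamini-Hochberg adjusted p below 0.05 and a fitted log2 fold change beyond 1 in either direction. Without young-SP replicate 1 it called 578. Uterine identity was clear in every library, with Hoxa10 between 437 and 519 CPM (counts scaled to 1000000 per library) and Myh11, a smooth muscle myosin, between 3052 and 5110 CPM. Keratin genes of vagina and cervix summed to at most 0.801 CPM and adipose genes to at most 1.8 CPM. Oviduct markers (Ovgp1 and Foxj1) were not near 0, summing to 52.8 and 121 CPM in aged-SP replicates 1 and 4. In young-SP replicates 1, 2 and 4 the sums were 68.2, 35.9 and 235 CPM, most of it Ovgp1. The part of oviduct RNA in the results below was not tested. Because whole uteri were sequenced, fewer cells of a type and less RNA per cell cannot be told apart in any result below.

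Of the 10 prostaglandin genes, 0 were called between the groups by edgeR, 0 by DESeq2 and 0 by limma-voom, against 0.147%, 3.60% and 0.159% of all genes tested by these tools. At an unadjusted p under 0.05 there were 0 of the 10 with edgeR, where 19.0% of all tested genes passed, while 1 gene, Ptgs2, passed in DESeq2 (18.6% of all genes) and also in limma-voom (18.5%). The fitted log2 fold change of the aged-SP over the young-SP group was above 0 for 3 genes and below 0 for 7 (49.1% of all tested genes were below 0), with a median of -0.070, beside 0.0072 for all tested genes. Adjusted p-values of the 10 genes lay between 0.314 and 0.929 with edgeR. For 1 of the 10 genes, Ptgs2, all aged-SP libraries lay on 1 side of all young-SP libraries, a pattern found in 38.8% of all tested genes (higher in the aged-SP group in 19.5% and lower in 19.3%).

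**Figure D1:**
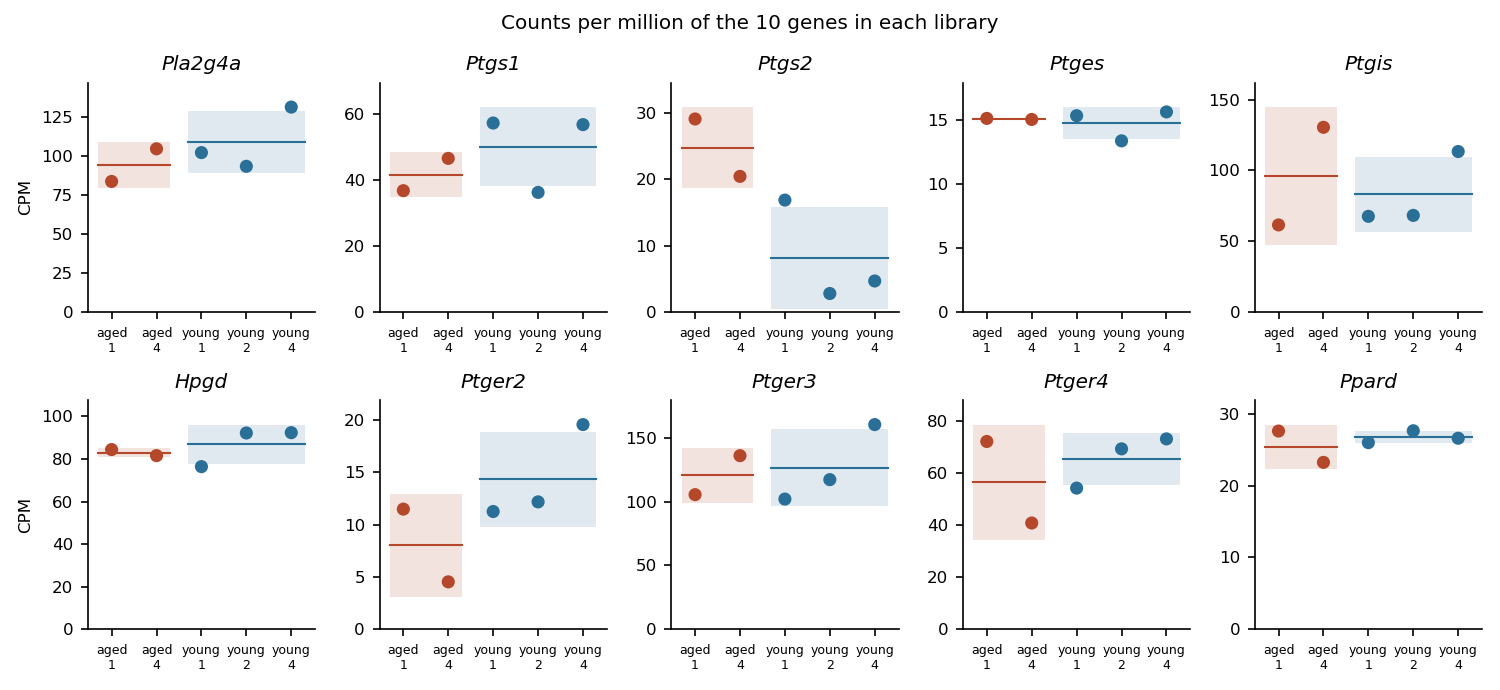
Level of each of the 10 genes in CPM (y axis, from 0) in the 2 aged-SP libraries (red) and the 3 young-SP libraries (blue), each point being 1 library. Lines are group means and shaded bands are ± 1 SD; Ptgs2 is the gene in which both aged-SP libraries, at 29.1 and 20.5 CPM, lie above all young-SP libraries, while Ptges and Ppard stay within narrow ranges.

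Arachidonate release was represented by Pla2g4a (chromosome 1, 149829618 to 149961290 on GRCm38, minus strand). Its level was 83.8 CPM in replicate 1 and 104.8 CPM in replicate 4 of the aged-SP group. The young-SP libraries had 102.4 CPM in replicate 1, 93.6 CPM in replicate 2 and 132 CPM in replicate 4. The groups overlapped, and the replicate 4 library was the highest of its group in both. As a log2 fold change this was -0.21 (standard error 0.18, 95% interval -0.67 to 0.25, edgeR adjusted p = 0.573).

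The cyclooxygenases are encoded by Ptgs1 (chromosome 2, 36230426 to 36252272, plus strand), which many tissues express steadily, and Ptgs2 (chromosome 1, 150100031 to 150108227, plus strand), which is typically induced by growth factors, cytokines and hormones. Ptgs2 lies 139 kb from Pla2g4a, their start sites lying head to head across the gap, with 1 other listed gene inside it. To show how the start regions of these paired enzymes differ, the 250 bases before and the first 30 bases after each annotated start are printed 5′ to 3′ from RefSeq (GRCm38.p6), at chr2:36230176-36230455 for Ptgs1 and chr1:150099781-150100060 for Ptgs2, both on the plus strand. Capitals mark matches, searched for on both strands, to any of 5 short motifs. The first is CGTCA, the half-site through which proteins of the CREB family respond to cAMP. The E-box, bound by helix-loop-helix proteins such as the USF factors, was searched for as CACGTG in these windows. A TATA box, which places the start of transcription, was taken as TATAAA and no looser form. The palindrome to which C/EBP proteins bind was searched for as TTGCGCAA with no mismatch allowed. Finally, the GC box of Sp1-type factors was taken as GGGCGG in either direction.
Ptgs1: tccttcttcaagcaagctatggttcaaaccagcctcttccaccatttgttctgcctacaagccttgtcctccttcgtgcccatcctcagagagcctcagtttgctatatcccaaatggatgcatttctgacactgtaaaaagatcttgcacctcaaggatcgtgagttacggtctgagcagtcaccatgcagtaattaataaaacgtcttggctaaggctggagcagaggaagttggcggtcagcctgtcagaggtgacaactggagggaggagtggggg
Ptgs2: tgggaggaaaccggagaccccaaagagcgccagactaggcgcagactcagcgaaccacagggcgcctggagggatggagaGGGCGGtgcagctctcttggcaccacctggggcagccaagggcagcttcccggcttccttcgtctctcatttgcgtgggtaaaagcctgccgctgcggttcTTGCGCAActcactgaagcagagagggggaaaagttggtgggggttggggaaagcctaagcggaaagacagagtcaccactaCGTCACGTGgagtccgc

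The Ptgs2 window held 4 of the 5 motifs and the Ptgs1 window none of them. In Ptgs2 the half-site spans bases 14 to 18 and the E-box bases 17 to 22 after the annotated start, so they overlap. The palindrome lies at -69 to -62. All positions depend on that annotated start, and nothing beyond its first 30 bases was searched. Windows of the same length were matched for 9 of the 10 prostaglandin genes, and Ptgis was not matched. The Ptges window begins 26566 bases from the start of the deposited gene, while the other windows lie within 84 bases of it. The palindrome was present in 1 of the 9 windows and in 0.180% of all 32841 windows in the table. The E-box was found in 1 of the 9 (6.80% of all windows), the half-site in 2 (19.9%), the TATA box in 1, that of Hpgd (13.1%), and the GC box in 6, Ptges among them (34.7%). These are matches of letters and not evidence of binding.

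Ptgs1 was at 36.8 and 46.6 CPM in aged-SP replicates 1 and 4. In young-SP replicates 1, 2 and 4 it was at 57.4, 36.3 and 56.9 CPM. The ranges overlapped, with young-SP replicate 2 the lowest library of all, and the log2 fold change was -0.27 (standard error 0.24, interval -0.86 to 0.33, edgeR adjusted p = 0.580).

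Ptgs2 had 482 and 320 counts in aged-SP replicates 1 and 4, or 29.1 and 20.5 CPM. Young-SP replicate 1 had 270 counts (16.9 CPM), replicate 2 had 47 (2.78 CPM) and replicate 4 had 70 (4.67 CPM). Both aged-SP libraries therefore lay above all young-SP libraries, but young-SP replicate 1 was nearer to the aged-SP libraries than to its own group. The mean was 24.8 ± 6.13 CPM in the aged-SP group (SD, n = 2). In the young-SP group it was 8.11 ± 7.66 CPM (SD, n = 3), and the fitted ratio was 3.06. The log2 fold change of 1.61 had a standard error of 0.74 and an interval of -0.23 to 3.46, and was not called (edgeR adjusted p = 0.314, DESeq2 0.152, limma-voom 0.189). Without young-SP replicate 1 it was 2.73 and was called (edgeR adjusted p = 0.0244, with 3.45% of all genes called in that fit). Of all tested genes, 1.58% varied more than Ptgs2 over the 5 libraries, by the SD of log2 CPM.

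**Figure D2:**
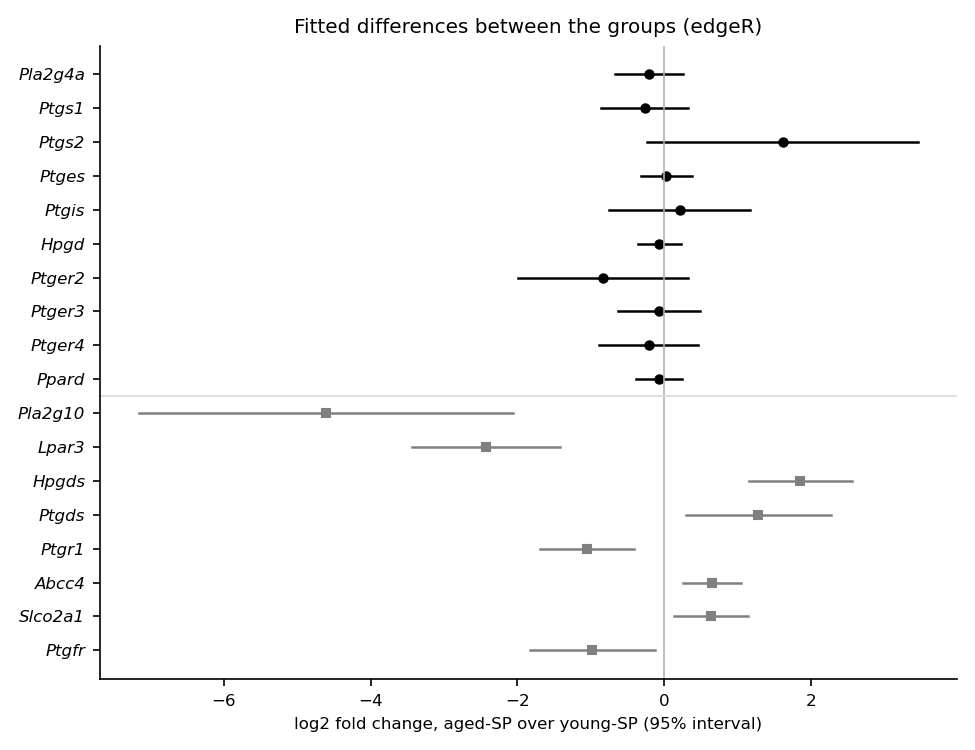
Fitted log2 fold change of the aged-SP over the young-SP group (x axis, log2 scale) with its 95% interval for the 10 prostaglandin genes (black circles) and for 8 further pathway genes chosen for an unadjusted p under 0.05 (grey squares). All 10 intervals of the black circles include 0, and those of Ptgs2 and Ptger2 are the widest of the 10; Akr1c18 is left out because it was near 0 counts in the young-SP group.

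Because Ptgs1 and Ptgs2 share a substrate and a reaction, their balance was measured within each library, which removes the scaling between libraries. Ptgs2 made up 40.2% of the summed FPKM of both genes (fragments per kilobase of gene and 1000000 mapped, a level per length) in aged-SP replicate 1 and 27.1% in replicate 4. It made up 19.98% in young-SP replicate 1, 6.10% in replicate 2 and 6.51% in replicate 4. Ptgs1 was thus the more abundant cyclooxygenase mRNA per length in all 5 libraries. The group means were 33.6% and 10.9%, a difference of 22.8 percentage points (exact permutation test, two-sided, p = 0.2, the smallest that 2 against 3 libraries can give, and adjusted p = 0.6 over 6 shares).

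The levels of Ptgs2 were set beside the full lists of 5 gland and 6 epithelial markers, which did not move as a block. Ptgs2 was lower in young-SP replicates 2 and 4 than in the other 3 libraries, and this held for 3 of the 5 gland markers (Prss28, Prss29 and Spink1) and 3 of the 6 epithelial markers (Cdh1, Epcam and Krt18). The gland protease gene Prss29 was at 2458 and 2137 CPM in aged-SP replicates 1 and 4, and at 385, 2.96 and 11.5 CPM in young-SP replicates 1, 2 and 4. Prss28, a protease of the same family, was at 1446 and 764 CPM against 90.7, 0.355 and 0.267 CPM. The secreted protease inhibitor Spink1 was at 153 CPM in aged-SP replicate 1 but at 12.2 CPM in aged-SP replicate 4, close to the 7.74 to 11.1 CPM of the young-SP libraries. Other gland genes differed from this pattern. The chemokine gene Cxcl15 was at 2.90 and 1.92 CPM in the aged-SP libraries and at 8.69, 20.2 and 8.14 CPM in the young-SP libraries, the opposite order (log2 fold change -2.35, edgeR adjusted p = 0.116, DESeq2 adjusted p = 0.000254). Foxa2, the factor that defines uterine glands, was between 8.51 and 14.1 CPM in all 5 libraries. Among the epithelial markers Epcam showed the widest gap, with 262, 235 and 281 CPM in aged-SP replicates 1 and 4 and young-SP replicate 1 against 76.6 and 87.05 CPM in young-SP replicates 2 and 4. Krt8, Krt19 and Cldn4 did not put young-SP replicates 2 and 4 below the aged-SP libraries, and their fitted log2 fold changes were -0.15, -0.42 and -0.12. The epithelial markers summed to 1072 to 1150 CPM in the aged-SP group and 733 to 1402 CPM in the young-SP group. The gland markers summed to 2927 to 4071 CPM and 39.3 to 504 CPM, sums that are almost wholly Prss28 and Prss29 in the aged-SP libraries. On the 5 libraries edgeR called 0 of the 6 epithelial and 0 of the 5 gland markers, and DESeq2 called 1, Cxcl15. DESeq2 gave no p-value for Prss28 and Prss29, so it could not call them. In the fit without young-SP replicate 1, which called Ptgs2, edgeR also called Epcam (log2 fold change 1.59, adjusted p = 0.0134), Prss28 (adjusted p = 0.00689) and Prss29 (adjusted p = 0.0178). The part of gland and epithelial content in the Ptgs2 result was not tested.

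**Figure D3:**
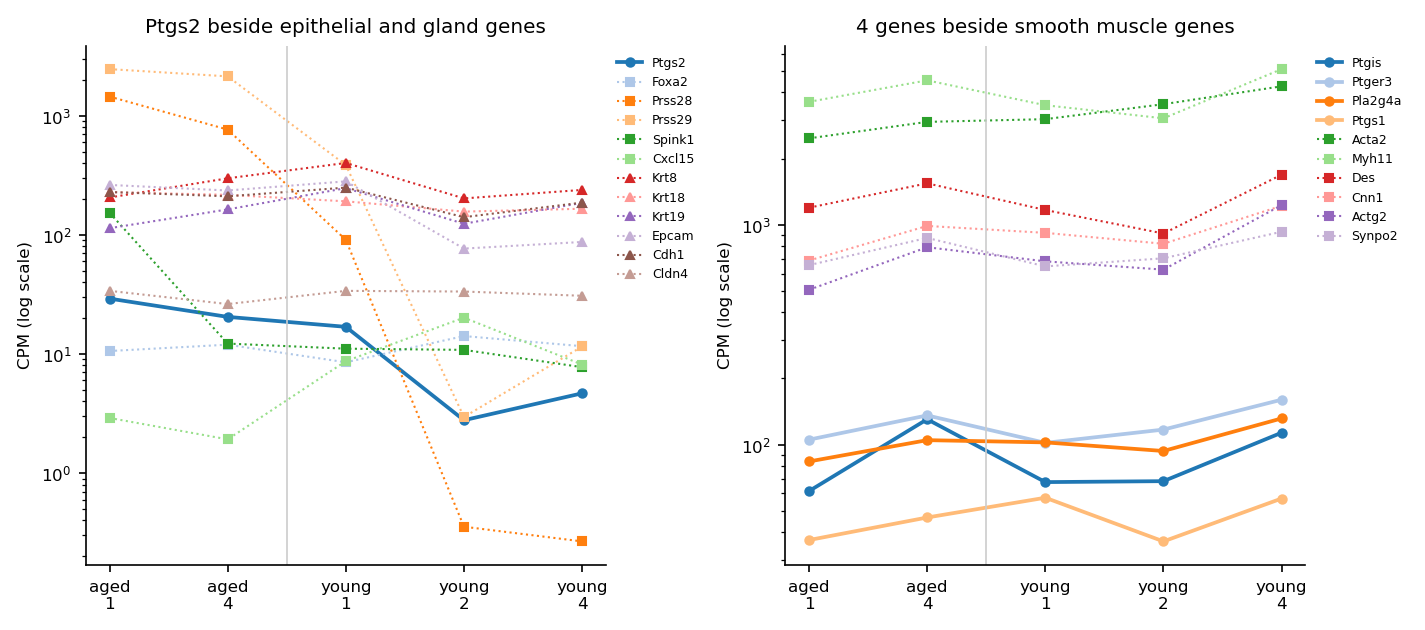
CPM on a log axis in each library (x axis, 2 aged-SP libraries left of the grey line and 3 young-SP libraries right of it), with prostaglandin genes as circles, epithelial markers as triangles and gland or smooth muscle markers as squares; lines only join the values of a gene. Left, Ptgs2 with all 5 gland and 6 epithelial markers, where Prss28, Prss29 and Epcam are, like Ptgs2 (2.78 and 4.67 CPM), low in young-SP replicates 2 and 4, while Foxa2 is flat and Cxcl15 runs the other way; right, Ptgis, Ptger3, Pla2g4a and Ptgs1 with all 6 smooth muscle markers, where replicate 4 is above replicate 1 in the aged-SP group for every gene shown.

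Terminal synthases showed no called difference. Ptges (chromosome 2, 30889471 to 30929863, minus strand), the inducible membrane-bound prostaglandin E synthase, was the steadiest of the 10 genes. Its level was 15.1 and 15 CPM in the aged-SP libraries, and 15.3, 13.4 and 15.6 CPM in young-SP replicates 1, 2 and 4. The highest library exceeded the lowest by a factor of 1.17, and 91.5% of tested genes varied more. Its log2 fold change was 0.030 (standard error 0.14, interval -0.32 to 0.38, edgeR adjusted p = 0.929).

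Ptgis (chromosome 2, 167191805 to 167240604, minus strand), the prostacyclin synthase, split the libraries within each group rather than between the groups. It was at 61.5 CPM in aged-SP replicate 1 and 130 CPM in aged-SP replicate 4. Young-SP replicates 1, 2 and 4 had 67.6, 68.2 and 113 CPM. Both replicate 4 libraries were high, and the log2 fold change was 0.21 (standard error 0.39, interval -0.75 to 1.17, edgeR adjusted p = 0.804). Without aged-SP replicate 4 it was -0.43, and without aged-SP replicate 1 it was 0.65. Per length, Ptgis made up between 86.2% and 93% of the summed FPKM of Ptgis and Ptges, with means of 89.6% and 89.2% in the aged-SP and young-SP groups. Smooth muscle markers, a list of 6 genes of which 0 were called, followed the same split: their summed level was 9149 and 11679 CPM in aged-SP replicates 1 and 4, and 9943, 9654 and 14450 CPM in young-SP replicates 1, 2 and 4. The split was not particular to muscle. Summed stromal, mast cell, oviduct and ovarian markers were also highest in the replicate 4 library of each group. The part of muscle or other tissue in the Ptgis values was not tested.

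Hpgd (chromosome 8, 56294585 to 56321043, plus strand) encodes the dehydrogenase that starts the inactivation of prostaglandins. The aged-SP libraries had 84.4 and 81.5 CPM, and the young-SP libraries 76.4, 92.2 and 92.3 CPM. The lowest and the highest libraries were both in the young-SP group and differed by a factor of 1.21. Between the groups the log2 fold change was -0.068 (standard error 0.12, interval -0.36 to 0.22, edgeR adjusted p = 0.790).

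Among the receptors of prostaglandin E2, Ptger3 (chromosome 3, 157566892 to 157645888, plus strand), which lowers cAMP and promotes contraction of smooth muscle, was the most abundant. It was at 105 and 136 CPM in the aged-SP libraries and at 101.9, 117 and 160 CPM in the young-SP libraries, with replicate 4 highest in both groups. The smooth muscle markers, like Pla2g4a and Ptgis, were also highest in the replicate 4 library of each group. So were the summed stromal, mast cell, oviduct and ovarian markers. The part of any of these tissues in the Ptger3 values was not tested. The log2 fold change of Ptger3 was -0.067 (standard error 0.22, interval -0.63 to 0.49, edgeR adjusted p = 0.897).

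Ptger4 (chromosome 15, 5206661 to 5244187, minus strand) and Ptger2 (chromosome 14, 44988195 to 45003820, plus strand) both raise cAMP. Ptger4 was at 72.3 CPM in aged-SP replicate 1 and 40.9 CPM in replicate 4, while the young-SP libraries had 54.4, 69.5 and 73.3 CPM. Aged-SP replicate 4 was the lowest library, replicate 1 lay among the young-SP values, and the log2 fold change was -0.21 (standard error 0.27, edgeR adjusted p = 0.702). Counts of Ptger4 carry some doubt, because 14.4% of the 50-base stretches of its transcripts also occur in other genes and its exons overlap those of Ttc33. Such shares were 4.25% for Ptgis, 3.89% for Ptger2 and 2.63% for Ptgs1, whose exons also overlap those of other annotated genes, and without strand the reads of overlapping genes cannot be told apart.

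Ptger2 was at 11.5 CPM (190 counts) in aged-SP replicate 1 and 4.54 CPM (71 counts) in aged-SP replicate 4. Young-SP replicates 1, 2 and 4 had 11.3, 12.2 and 19.6 CPM. Aged-SP replicate 4 stood below every other library, but replicate 1 lay within the young-SP range. The log2 fold change of -0.84 had a standard error of 0.46 and an interval of -1.99 to 0.32 (edgeR adjusted p = 0.386). Without aged-SP replicate 1 it was -1.66, and without aged-SP replicate 4 it was -0.32, so its size depended on which of these libraries was kept. Ptger2 varied over the 5 libraries by a factor of 4.31, second to Ptgs2 with 10.5 among the 10 genes.

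Per length, Ptger3 held between 58.4% and 76.9% of the summed FPKM of the 4 prostaglandin E2 receptors, Ptger4 between 19.8% and 34.3%, and Ptger2 between 2.82% and 8.74%. Ptger1, which acts through calcium and is not among the 10 genes, held at most 0.415%, and 63.3% of its 50-base stretches occur in other genes. The order Ptger3, Ptger4, Ptger2, Ptger1 was the same in every library. For Ptger2 the shares in the aged-SP libraries were 6.98% and 2.82%, against 7.65%, 7.0% and 8.74% in the young-SP libraries (exact permutation test, two-sided, p = 0.2, the smallest possible, and adjusted p = 0.6 over 6 shares).

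**Figure D4:**
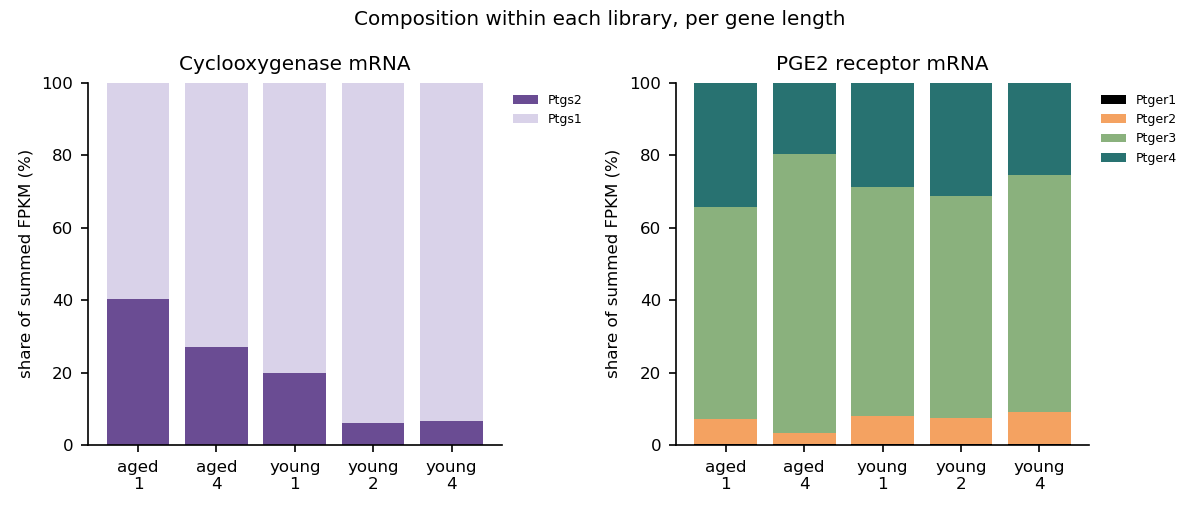
Share of summed FPKM in percent (y axis, 0 to 100) in each library for the cyclooxygenases (left) and the 4 prostaglandin E2 receptors (right). The Ptgs2 part runs from 40.2% in aged-SP replicate 1 to 6.10% in young-SP replicate 2, and Ptger3 holds the largest part of the receptor mRNA in all 5 libraries; Ptger1 is too small to be seen.

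Ppard (chromosome 17, 28232754 to 28301469, plus strand), a nuclear receptor that forms pairs with retinoid X receptors, was at 27.6 and 23.2 CPM in the aged-SP libraries and at 26.0, 27.6 and 26.6 CPM in the young-SP libraries. The groups overlapped, and 87.3% of tested genes varied more over the 5 libraries. The log2 fold change was -0.073 (standard error 0.12, interval -0.38 to 0.24, edgeR adjusted p = 0.787).

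Compared per length, mean FPKM over the 5 libraries ran from Hpgd at 50.7 ± 4.50 through Ptgis at 34.3 ± 12.2, Ptger3 at 21.8 ± 4.22, Pla2g4a at 16.1 ± 2.75, Ptgs1 at 12.0 ± 2.57, Ptger4 at 9.33 ± 2.13, Ppard at 5.65 ± 0.412, Ptges at 3.78 ± 0.183 and Ptgs2 at 3.21 ± 2.39 to Ptger2 at 2.27 ± 1.0 (SD, n = 5). Hpgd stood at the 94.4th percentile of the tested genes and Ptger2 at the 31.3rd. Ptger4 and Ppard were neighbours in this order whose ranges did not overlap, as were Ppard and Ptges. Every other pair of neighbours had overlapping ranges. Ptgis was nevertheless above Ptger3, Ptger3 above Pla2g4a and Pla2g4a above Ptgs1 in each of the 5 libraries, while Ptges was above Ptgs2 in 3 of them.

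**Figure D5:**
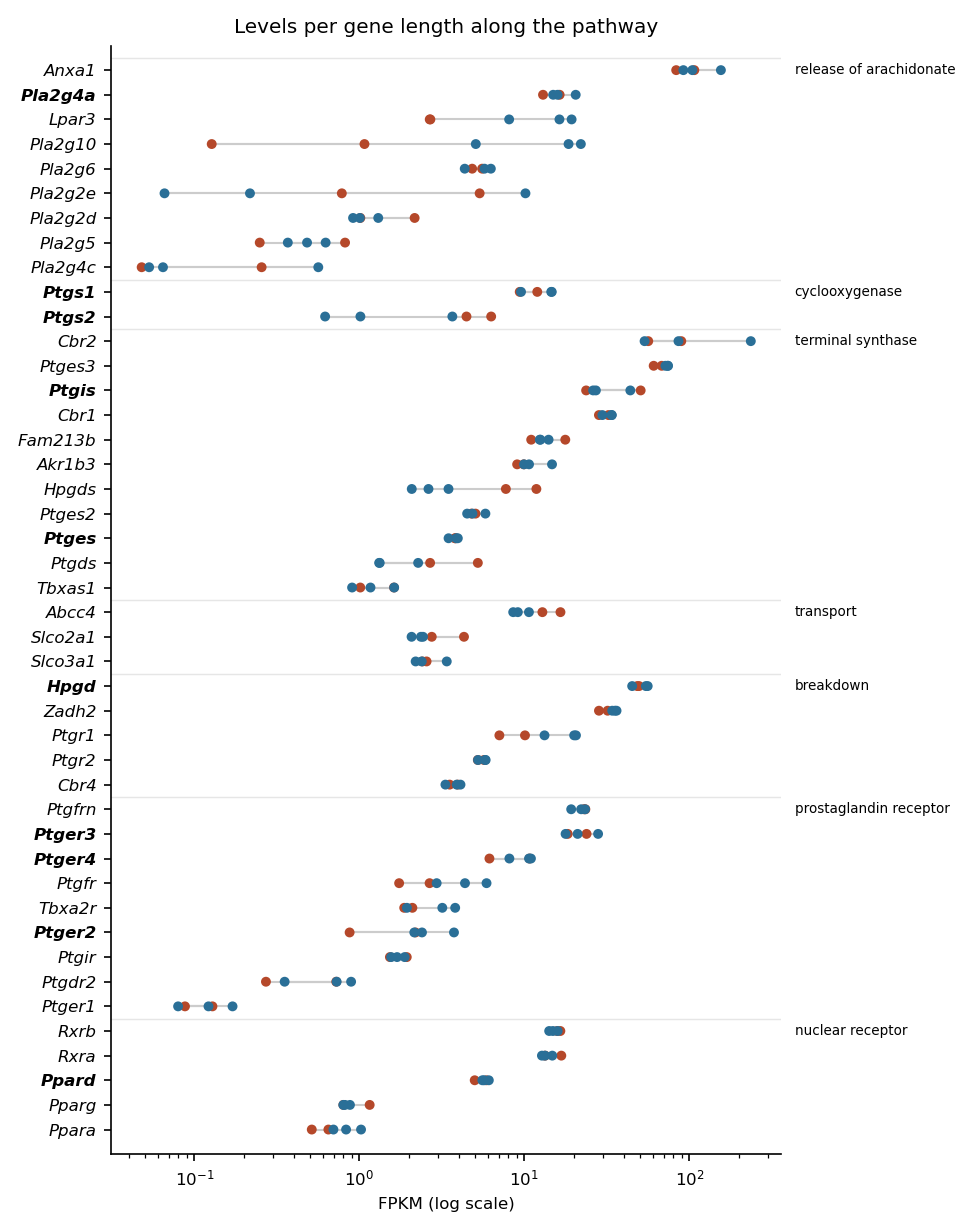
FPKM on a log axis for 44 tested pathway genes with a value above 0 in every library, grouped by role; each point is 1 library (red, aged-SP; blue, young-SP) and names in bold are the 10 prostaglandin genes. Points of both colors are mixed for most genes, and genes where they are apart include Ptgs2, Hpgds, Lpar3, Pla2g10 and Ptgr1.

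Around the 10 genes, 41 further genes of prostaglandin supply, synthesis, transport, breakdown and signaling were listed in the table and 36 were tested. None of the 36 was called by edgeR (0) or limma-voom (0). DESeq2 called 6 of the 37 for which it gave an adjusted p, with 3.60% of its tested genes called. Ptgdr was among these 6, with nearly all of its counts in aged-SP replicate 1. At an unadjusted p under 0.05 edgeR gave 9 of the 36, of which 5 had a higher and 4 a lower aged-SP level, beside 9.62% and 9.36% of all tested genes. In 14 of the 36 the libraries of the groups were fully apart, again beside 38.8% of all tested genes. The median log2 fold change of the 36 was -0.055. The most abundant gene of each role was taken by mean FPKM over the 5 libraries. These were Anxa1 (an inhibitor of phospholipase A2), Cbr2 among enzymes that convert prostaglandins and Zadh2 in breakdown. They also included the exporter Abcc4, the nuclear receptor Rxrb and Ptgfrn, which was grouped with the receptors. Ptgfrn encodes a regulator of the prostaglandin F2-alpha receptor and not a receptor itself. The ranks of Cbr2 and Rxrb did not hold in every library. Cbr2 was at 236 FPKM in young-SP replicate 1 but, at 56.4 and 53.5 FPKM, below the 67.9 and 74.1 FPKM of Ptges3 in aged-SP replicate 1 and young-SP replicate 2, and Rxra was above Rxrb in aged-SP replicate 4 (16.7 against 16.5 FPKM). Of the genes named Abcc4 was among the 9.

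Among the other genes of arachidonate release and its control, Lpar3 and Pla2g10 were low in the aged-SP libraries. Lpar3 encodes a receptor for lysophosphatidic acid whose loss in mice lowers uterine Ptgs2 and delays implantation. It was at 6.65 CPM in both aged-SP libraries and at 20.1, 39.4 and 47.9 CPM in young-SP replicates 1, 2 and 4, without overlap. Its log2 fold change was -2.43 (standard error 0.40, edgeR adjusted p = 0.0795, DESeq2 adjusted p = 1.05e-07). The secreted phospholipase Pla2g10 was at 1.63 and 0.192 CPM against 7.69, 32.4 and 28 CPM, or -4.61 on the log2 scale as a difference (edgeR adjusted p = 0.114, DESeq2 adjusted p = 0.00274). In both genes young-SP replicate 1 was the lowest of its group, so leaving it out widened the gap. The edgeR adjusted p was then 0.00811 for Lpar3 and 0.0295 for Pla2g10. Without young-SP replicate 2 or 4 instead, edgeR called 0 of the further pathway genes. On the 5 libraries limma-voom gave adjusted p = 0.134 for Lpar3 and 0.232 for Pla2g10. With any 1 library left out, the log2 fold change lay between -2.73 and -2.17 for Lpar3 and between -6.83 and -3.79 for Pla2g10.

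On the synthase side, Hpgds, the prostaglandin D synthase of mast cells and other leukocytes, was at 76.8 and 49.8 CPM in the aged-SP libraries and at 22.5, 13.1 and 17 CPM in the young-SP libraries. The log2 fold change was 1.86 (standard error 0.28, edgeR adjusted p = 0.0757, DESeq2 adjusted p = 6.38e-07, limma-voom adjusted p = 0.0794). Young-SP replicate 1 was the highest of its group, and without it the edgeR adjusted p was 0.0264. With any 1 library left out, the log2 fold change lay between 1.51 and 2.14. Mast cell markers, of which 0 of 5 were called, summed to 58.9 and 191 CPM in aged-SP replicates 1 and 4 and to 22.4, 48.3 and 79.6 CPM in the young-SP libraries. Their highest library, aged-SP replicate 4, was not the one highest in Hpgds, and their part in the Hpgds result was not tested. The other D synthase, Ptgds, was at 4.47 and 8.63 CPM against 2.19, 3.67 and 2.2 CPM (edgeR adjusted p = 0.185).

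Akr1c18 encodes 20-alpha-hydroxysteroid dehydrogenase, which inactivates progesterone and can also form prostaglandin F2-alpha. Aged-SP replicates 1 and 4 gave 531 and 80 counts, and young-SP replicates 1, 2 and 4 gave 3, 0 and 2 counts. The ratio of the pooled counts, scaled for depth, was 182 (95% interval 77.5 to 562, counting error only). With a library left out, a setting added after the data were seen, the ratio ranged more widely, being 49.0 when aged-SP replicate 1 was omitted and 307 when aged-SP replicate 4 was. Omitting young-SP replicate 1, 2 or 4 gave 303, 118 or 208. Adjusted p-values differed widely between tools (edgeR 0.0757, DESeq2 4.74e-05, limma-voom 0.203). The gene is also abundant in the ovary, and a list of 4 ovarian markers summed to 35.8 and 70.9 CPM in aged-SP replicates 1 and 4 and to 26.6, 21.5 and 42.5 CPM in the young-SP libraries, most of it Star. Of the 4, Star and Cyp11a1 (3 and 14 counts in the aged-SP libraries) were higher in aged-SP replicate 4, and Inha (90 and 73 counts) and Amh (3 and 1 counts) in aged-SP replicate 1, the library with more Akr1c18 counts. The part of ovarian RNA in the Akr1c18 result was not tested.

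Transport, breakdown and receptor genes completed the 9. The exporter Abcc4 was at 107 and 82.4 CPM in the aged-SP libraries and between 55.0 and 68.6 CPM in the young-SP libraries (log2 fold change 0.65, edgeR adjusted p = 0.131), and the uptake carrier Slco2a1 at 37.6 and 58.5 CPM against 28.3 to 32.2 CPM (log2 fold change 0.64, adjusted p = 0.192). Ptgr1, a reductase that acts after Hpgd, was at 16.4 and 23.2 CPM against 30.6, 45.0 and 47.5 CPM (log2 fold change -1.05, edgeR adjusted p = 0.132, DESeq2 adjusted p = 0.00492). Ptgfr, the receptor of prostaglandin F2-alpha that drives uterine contraction, was at 18.3 and 11.8 CPM against 20.1, 39.1 and 29.8 CPM (log2 fold change -0.98, edgeR adjusted p = 0.220). These values had no overlap between the groups, but none of the 4 genes passed the adjusted threshold with edgeR on the 5 libraries.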

How the data were processed

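Uterine RNA of 2 aged-SP and 3 young-SP samples had been sequenced from libraries of a kit that is not described as strand-specific. The authors filtered the reads and aligned them with HISAT2 (2.1.0), and the submitters' processing notes also name HTSeq (0.6.0). The deposited series table holds raw counts per gene. The FPKM values that the authors deposited per sample equal these counts divided by gene length and total count, checked to within 1 base of implied length for all 28666 genes, and they were used only to compare levels between genes. The deposited table also holds the authors' mean, fold change and p-value columns, which were not used. Groups and replicate numbers came from the sample titles. Nothing in the labels says that samples are separate animals, so p-values measure the spread between these samples.

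Counts were compared with edgeR 4.0.16 (filterByExpr, TMM scaling, glmQLFit, glmQLFTest, two-sided) in R 4.3.3, with Benjamini-Hochberg adjustment over 17013 genes, and with DESeq2 1.42.0 and limma 3.58.1 as alternatives. Tables and plots were made in Python 3.11.15, the exact permutation tests with scipy 1.17.1. CPM are counts per 1000000 of the TMM-scaled library, and 95% intervals use the standard error and 5.55 degrees of freedom. On simulated counts the fitted log2 fold changes were checked for bias. The simulation held no library that departs from its group, so it cannot decide which tool's calls hold here. All 10 prostaglandin genes were named. Of the other lists, genes with an unadjusted p under 0.05 and no overlap between groups were named, as were the most abundant gene of each role and defining markers. The genes and lists were chosen with earlier results of these data known, and some list genes are not reported here or counted in their lists. Promoters are from RefSeq, and shared 50-base stretches and exon overlaps from GENCODE M21 on GRCm38, where 26999 of the 28666 genes have the deposited position. No molecular identifiers are described, so counting intervals cover counting error only. Alternatives were other size factors, library size alone, the other tools, no filter, a stricter one (at least 10 counts in each sample), a block for the replicate number, leaving out each library, and the adjusted p alone.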

Additional observations from a re-analysis of the deposited data

How the results depend on the processing

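The count of called prostaglandin genes was 0 under every alternative except without young-SP replicate 1, where Ptgs2 was called (range 0 to 1 with a library left out). At an unadjusted p under 0.05 there were 0 of the 10 with edgeR, 1 with DESeq2, with limma-voom and with no filter (where 12.8% of all genes passed), and 0 to 2 with a library left out (12.0% to 22.7% of all genes). Called genes in all were 25 with edgeR, 632 with DESeq2 and 203 with no filter. Each library moved this count when left out: to 1 for aged-SP replicate 1, 49 for aged-SP replicate 4, 578 for young-SP replicate 1, 3 for young-SP replicate 2 and 2 for young-SP replicate 4. The fits without an aged-SP library assume that the lone sample varies like the other group. Of the other pathway genes, 0 were called with edgeR, 6 with DESeq2, 3 with no filter, and 0 to 4 with a library left out. The cause of these shifts was not tested.

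The median log2 fold change of the 10 genes moved by less than 1 SD between libraries under each alternative. With a library left out, the direction changed for Ptger3 (-0.26 to 0.13), Ptgis (-0.43 to 0.65), Ptger4 (-0.68 to 0.14), Ppard (-0.20 to 0.045) and Ptges (-0.040 to 0.064), and Ptgs2 stayed above 0 (1.2 to 2.73).

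The groups share replicate numbers 1 and 4, but no label ties them to a shared animal or batch. Deviations from the group means correlated at 0.15 for replicate 1 and 0.14 for replicate 4 over the tested genes. The deviations of 2 aged-SP libraries are exact opposites, so swapping the aged-SP library only turns the sign (-0.15 and -0.14). Aged-SP replicate 4 with young-SP replicate 2, which share no number, gave 0.076. These linked values cannot decide whether the numbers mark pairs. In a fit with the replicate block, the group difference rested on replicates 1 and 4, because replicate 2 occurs only in the young-SP group. With this block, 2 genes were called in all and 0 of the 10. At an unadjusted p under 0.05 there were 3 of the 10 (Ptgs2, Ptgs1 and Pla2g4a, beside 14.8% of all genes), and Ptges changed direction to -0.038.

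With 2 aged-SP libraries, intervals were wide: that of Ptgs2 reached from -0.23 to 3.46 on the log2 scale.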

Other observations

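Arachidonate also feeds the lipoxygenases, which make hydroxylated fatty acids and leukotrienes. Of 11 tested genes of this branch, 0 were called by edgeR or DESeq2, and 3 had an unadjusted p under 0.05 in edgeR's test, 1 with a higher and 2 with a lower aged-SP level, where 9.62% and 9.36% of all tested genes passed. Alox15 was at 26.5 and 108 CPM in aged-SP replicates 1 and 4 and at 225, 141 and 230 CPM in young-SP replicates 1, 2 and 4. Alox12e, which lies 21.5 kb from it on chromosome 11, was at 20.1 and 80.5 CPM against 113, 151 and 194 CPM. Both had an unadjusted p under 0.05 and no overlap between the groups, and both were lowest in aged-SP replicate 1 (edgeR adjusted p = 0.255 and 0.244). Aloxe3, an epidermal family member, was near the limit of detection, with 28 and 15 counts in aged-SP replicates 1 and 4 against 7, 4 and 4 (edgeR adjusted p = 0.123).

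Of 8 tested genes from a list of known targets of the PPAR receptors, 0 were called by edgeR, and 2 had an unadjusted p under 0.05, close to the 19.0% of all tested genes, both with a higher aged-SP level. Pdk4, a kinase that limits glucose oxidation, was at 21 and 44.7 CPM in the aged-SP libraries and between 4.67 and 8.74 CPM in the young-SP libraries, a log2 fold change of 2.24 (edgeR adjusted p = 0.0867, DESeq2 adjusted p = 1.16e-05). Cpt1a, which carries fatty acids into mitochondria, was at 203 and 143 CPM against 100.4 to 106 CPM (log2 fold change 0.74, edgeR adjusted p = 0.109). Other signals also act on these genes, and the other 6 tested genes of the list did not reach an unadjusted p under 0.05.

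Ptgdr, a receptor of prostaglandin D2, had 164 counts in aged-SP replicate 1 and between 0 and 2 counts in the other libraries. It was chosen after its values were seen, and was not tested by edgeR because only aged-SP replicate 1 had enough counts for the filter. DESeq2 called it (adjusted p = 0.00329), a call that rests on that library alone. Ptgdr lies 129 kb from Ptger2 on chromosome 14, and 24.2% of its 50-base stretches occur in other genes.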
